A study of Mus musculus with 12 samples.

Results

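The genes described here encode the gp130 cytokine system and its transcription factor STAT3. They are the receptor chains Osmr, Lifr, Il6st, Il6ra and Cntfr, the ligands Lif, Cntf and Clcf1, the transcription factor Stat3 and its feedback inhibitor Socs3. They were taken by name through the Ensembl identifiers of the gene tables, and all 10 were found among the 54532 genes listed. Of these 10, 9 passed the filter on low counts, as did 18299 genes in all, and Cntf did not.

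Retinal RNA was sequenced as 12 libraries, 3 in each of 4 groups of wild type C57BL/6 mice aged 13 weeks. The SHAM group was the sham control, and the MOG group was immunized with a myelin oligodendrocyte glycoprotein peptide in complete Freund's adjuvant with pertussis toxin, which gives experimental autoimmune encephalomyelitis with optic neuritis. The GB20 and GV16 groups were immunized like the MOG group and were later needled on both sides, several times and under xylazine and ketamine, at the acupoint GB20 or at the control acupoint GV16. The methods describe female mice, do not state whether MOG or SHAM mice were anesthetized, and do not say whether a library pooled the retinas of several mice. Nor do they state what SHAM mice were given, adjuvant and toxin included. Adjuvant and toxin came with the peptide in all 3 immunized groups, and needling came with anesthesia. The p-values measure the spread between libraries of a group, which are described as repeats of the experiment.

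Cytokines of this family bind a receptor made of the shared chain gp130, the product of Il6st, and a partner such as the oncostatin M receptor (Osmr) or the LIF receptor (Lifr). JAK kinases bound to the receptor then phosphorylate STAT3, which enters the nucleus and turns on genes that include Socs3, whose protein shuts the receptor down. In the retina this pathway is known for its part in the response of Müller glia to injury and in the protection of photoreceptors and ganglion cells by LIF and CNTF.

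Osmr and Stat3 were higher in MOG than in SHAM retinas, by 2.56-fold and 1.64-fold. Osmr was lower in both needled groups than in MOG, at 0.631 and 0.633 of the MOG level, and it stayed above SHAM there. These calls in GB20 and GV16 lay near the threshold. With 1 library left out, those against MOG held in 7 and 4 of 12 fits, and those against SHAM in 5 and 9. These 12 fits include those without a library of a group outside the comparison. Leaving out any GB20 library ended both GB20 calls, and leaving out any SHAM library ended the GB20 call against SHAM. The fitted Stat3 level of the needled groups was 0.918 and 0.867 of MOG, and neither difference passed the correction over all genes. No other member was called in any of the 6 comparisons among the groups.

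Library totals ranged from 15860278 to 19194280 counts. MOG retinas carried less RNA of retinal ganglion cell markers than SHAM: all 12 of 12 listed genes were lower, and their summed level was 479 to 581 CPM (counts scaled to the library size by TMM) in MOG against 848 to 959 in SHAM. Over all 18299 genes tested, 141 were called lower and 104 higher (0.568%) in this comparison. Of the microglia and macrophage markers 3 of 14 were higher (Csf1r, C1qa and Ctss), with summed levels of 80.5 to 88 against 52 to 62.8. Of the Müller cell markers 2 of 14 were higher (Aqp4 and Crym), while their summed level overlapped (4550 to 5080 against 4730 to 5120). Of the astrocyte markers 0 of 5 were called, and their summed level was 33.9 to 39 CPM in MOG against 29.6 to 37.1 in SHAM. Of the pigment epithelium markers 0 of 9 were called, but their summed level did not overlap, at 47.7 to 59.9 CPM in MOG against 28.6 to 39 in SHAM. Of these, 4 of 9 lay above SHAM in every MOG library (Rpe65, Rgr, Lrat and Ttr, with log2 fold changes of 1.63, 1.11, 1.04 and 0.86), beside the 16.2% of all genes whose groups did not overlap. Blood leukocyte markers were close to the floor, with 1 of 14 tested, a summed level of 2.18 to 2.83 in MOG against 0.848 to 1.78 in SHAM, and Ms4a1 and Ly6g at 0 in all 12 libraries. Between MOG and either needled group, 0 of 12 ganglion cell, 0 of 9 vascular and 0 of 14 microglia and macrophage markers were called. Summed ganglion cell markers were 588 to 594 CPM in GB20 and 454 to 657 in GV16. Vascular markers were 325 to 335 in GB20 and 290 to 342 in GV16, against 339 to 364 in MOG. Microglia and macrophage markers were 73.2 to 95.4 and 80.4 to 90.8. In whole retina, fewer cells of a type and less RNA per cell cannot be told apart, and the part of these shifts in the results below was not tested.

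Promoter sequence is shown for Stat3, which was called, and for Socs3, whose promoter carries the letters that STAT dimers are known to bind. The letters searched were TTCNNNGAA, which read the same on both strands, in the 250 bases before each RefSeq start (GRCm38.p6, the same build as mm10). Of 32851 promoters in the table, 7.02% held them. The table had 15 such windows for 9 members, and 1 of them, that of Socs3, had a match. Capitals mark the match, and the stretches shown lie on the minus strand, outside every annotated exon of the gene.
Stat3, chr11:100939541-100939790: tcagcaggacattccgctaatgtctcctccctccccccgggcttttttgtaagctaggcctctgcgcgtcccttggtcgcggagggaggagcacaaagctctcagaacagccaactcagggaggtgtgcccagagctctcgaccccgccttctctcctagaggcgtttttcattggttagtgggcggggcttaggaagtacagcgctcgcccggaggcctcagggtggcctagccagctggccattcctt
Socs3, chr11:117969452-117969616: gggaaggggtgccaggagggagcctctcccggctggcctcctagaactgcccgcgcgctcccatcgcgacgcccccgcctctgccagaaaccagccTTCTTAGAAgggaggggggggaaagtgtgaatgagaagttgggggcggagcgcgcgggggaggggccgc
The match in Socs3 spans chr11:117969512-117969520, and its first base lies 154 bases before the start. The window of Osmr held no match; it lies inside an annotated first exon and is not printed. Among genes known as STAT3 targets, 5 of 36 windows (13.9%) held the letters, in Fgl2, Icam1, Sbno2 and Steap4, and 0 of the 5 called targets with a window did. A match describes these letters and says nothing of binding.

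Members were first ordered by their level per length, as FPKM over all 12 libraries. Cntfr, which encodes the receptor chain specific for CNTF, had the highest mean at 15.0 FPKM ± 1.25 (SD, n = 12). Next came Il6st with 11.1 FPKM, Stat3 with 9.63 FPKM and Lifr with 8.70 FPKM. Stat3 lay below Lifr in SHAM (6.91 against 8.18 FPKM) and above it in MOG (11.3 against 8.74 FPKM), so the order of this pair differed between groups. The range of Cntfr (12.7 to 16.6 FPKM) did not overlap that of Il6st (8.99 to 12.3 FPKM), whereas Stat3 (6.07 to 12.8 FPKM) overlapped both Il6st and Lifr (7.36 to 9.32 FPKM). Socs3 (1.86 FPKM), Clcf1 (1.47 FPKM) and Osmr (0.964 FPKM) formed a lower set in which neighbours overlapped. Lif (0.258 FPKM), Cntf (0.221 FPKM) and Il6ra (0.0895 FPKM) were lowest, again with overlapping ranges. Messenger RNA of the shared chain and of the LIF and CNTF receptors was read at levels well above the ligands and above the IL-6 receptor alpha chain.

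**Figure D1:**
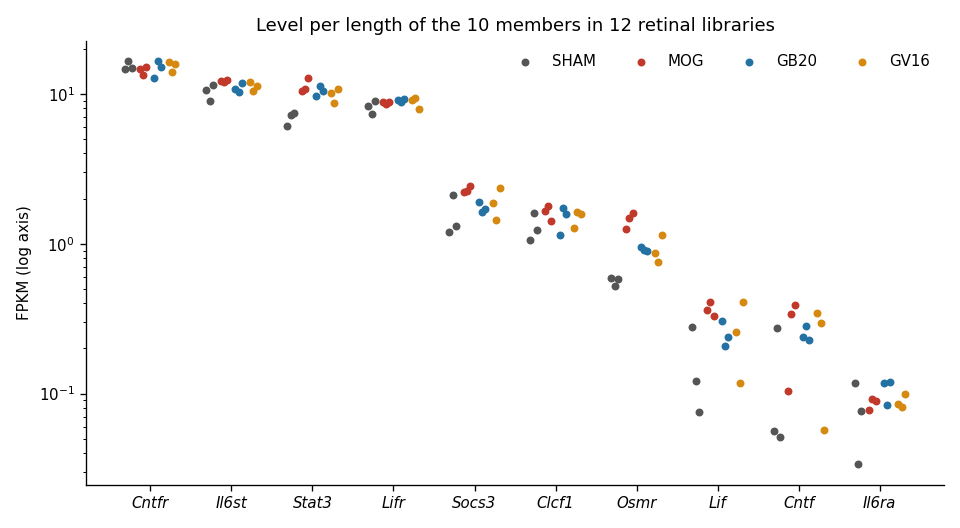
FPKM (log axis) of the 10 members in each of 12 libraries, colored by group and ordered by the mean over all libraries. Cntfr stands highest (12.7 to 16.6 FPKM), Il6ra lowest on average (0.0337 to 0.119 FPKM), and the MOG points of Osmr and Stat3 stand above the SHAM points.

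To examine what MOG immunization changed, MOG was compared with SHAM. Of the 9 members tested, 2 were called, both higher, where 1.34% of all genes were called and 0.568% were called higher. The median log2 fold change of the 9 was 0.32, beside -0.002 for all genes tested. Libraries of the groups did not overlap for 5 of the 9 members, beside 16.2% of all genes. The members were chosen with earlier results of these data known, so these counts describe them and are no test of the set.

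Osmr (ENSMUSG00000022146, chromosome 15, 6813577 to 6874969, minus strand) encodes the partner of gp130 that binds oncostatin M. SHAM libraries gave 7.27, 6.41 and 7.10 CPM and MOG libraries gave 15.3, 18.3 and 19.7 CPM. All 3 MOG libraries lay above all 3 SHAM libraries, by a gap wider than the spread inside either group. The means were 6.93 CPM ± 0.454 and 17.8 CPM ± 2.26 (SD, n = 3 each), from 109 to 128 and 273 to 328 counts. The log2 fold change was 1.36 (SE 0.142, edgeR adjusted p = 5.35e-06), which placed Osmr as number 7 of 18299 genes by p. It remained called in all 12 fits that left out 1 library, with log2 fold changes of 1.28 to 1.45.

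Stat3 (ENSMUSG00000004040, chromosome 11, 100885098 to 100939540, minus strand) encodes the transcription factor that the receptors activate. SHAM libraries gave 58.4, 69.7 and 71.4 CPM, and MOG libraries gave 100, 103 and 123 CPM. Again no MOG library reached down to the SHAM range. Means were 66.5 CPM ± 7.03 and 109 CPM ± 12.7 (SD, n = 3 each), and the log2 fold change was 0.71 (SE 0.0951, edgeR adjusted p = 0.000224). The call held in all 12 fits with a library left out (log2 fold changes of 0.62 to 0.77). Exon bases shared with Stat5a on the other strand amount to 0.76% of Stat3, and the strand setting of the counting is not given in the sources used here.

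Both called genes are long, with exons of 12113 bases for Osmr and 9527 bases for Stat3, longer than 95.4% and 90.6% of the tested genes. Log2 fold changes in MOG vs. SHAM were higher for longer exons over 11148 genes (Spearman's rho 0.392 across genes, which are not independent replicates). With that trend removed the log2 fold changes were 1.28 for Osmr and 0.66 for Stat3, and both stayed called (edgeR adjusted p = 2.66e-06 and 0.00159). Lifr and Il6st have exons of 10776 and 11099 bases, and their log2 fold changes were 0.09 and 0.22.

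The other receptor chains were not called. Il6st (ENSMUSG00000021756, chromosome 13, 112464070 to 112510086, plus strand) gave 119, 101 and 128 CPM in SHAM and 134, 134 and 137 CPM in MOG. All MOG libraries lay above SHAM, but the log2 fold change of 0.22 (SE 0.0816, edgeR adjusted p = 0.235) missed the threshold. Lifr (ENSMUSG00000054263) lies 215644 bases from Osmr on chromosome 15, at 7090614 to 7197489, on the plus strand. Lifr was 80.0 to 96.8 CPM in SHAM and 93.8 to 96.1 CPM in MOG, and the interval of its log2 fold change ran from -0.07 to 0.25. That of Osmr ran from 1.06 to 1.65, so the intervals of these neighboring genes were far apart. For Cntfr (ENSMUSG00000028444, chromosome 4, 41657498 to 41697089, minus strand) the groups overlapped, with 41.4 to 46.6 CPM and 37.7 to 42.3 CPM and a log2 fold change of -0.10 (95% interval -0.29 to 0.09). Il6ra (ENSMUSG00000027947, chromosome 3, 89864059 to 89913196, minus strand), the receptor chain for IL-6, had 5 to 17 counts per library in SHAM and 12 to 13 in MOG. At this depth its interval was wide (-0.66 to 1.02), and changes of up to about that size lie inside it. How large a change could have been called was not tested.

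Among the ligands, Lif (ENSMUSG00000034394, chromosome 11, 4257557 to 4272514, plus strand) had the largest fitted difference. Its counts were 20, 9 and 6 in SHAM and 28, 29 and 24 in MOG, equal to 1.21, 0.529 and 0.333 CPM and 1.57, 1.78 and 1.44 CPM. All MOG libraries were above SHAM, with 1 SHAM library close to them. The log2 fold change of 1.22 (SE 0.418, edgeR adjusted p = 0.201) had an interval from 0.35 to 2.08 and missed the threshold. Clcf1 (ENSMUSG00000040663, chromosome 19, 4214238 to 4223490, plus strand), a ligand of the CNTF receptor, was 3.94 to 5.94 CPM in SHAM and 5.28 to 6.70 CPM in MOG, and its log2 fold change was 0.32 (SE 0.185, edgeR adjusted p = 0.48). Of its exon bases 8.17% overlap AC109138.7 on the same strand. Cntf (ENSMUSG00000079415, chromosome 19, 12763660 to 12765632, minus strand) had 1 to 7 counts per library and 48 in all, namely 7 in SHAM, 15 in MOG, 14 in GB20 and 12 in GV16. It was not tested, and its counts are uncertain because 78.94% of its exon bases overlap Zfp91 on the same strand.

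Socs3 (ENSMUSG00000053113, chromosome 11, 117966079 to 117970047, minus strand), the feedback inhibitor, gave 3.51, 6.17 and 3.83 CPM in SHAM and 6.38, 6.51 and 7.03 CPM in MOG. The MOG libraries lay close together and above SHAM, of which replicate 2 nearly reached them. Its log2 fold change of 0.56 (SE 0.197, edgeR adjusted p = 0.216) was not called. Without SHAM replicate 2 it was 0.86 and passed (edgeR adjusted p = 0.0206), and in none of the other 11 fits with a library left out did it pass.

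**Figure D2:**
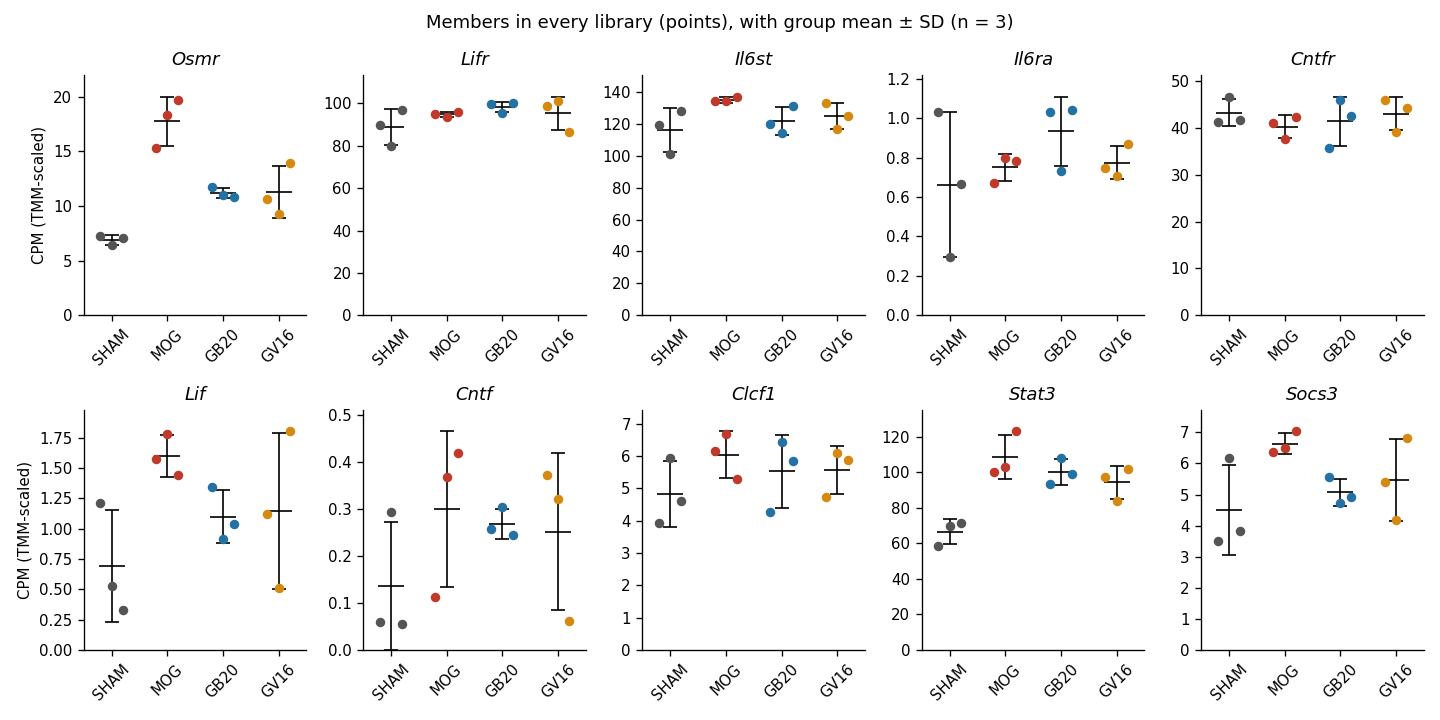
CPM (TMM-scaled) of each member in each library (points), with the group mean and SD (bars, n = 3). Osmr shows 3 separate levels, with SHAM at 6.41 to 7.27, the needled groups at 9.26 to 13.9 and MOG at 15.3 to 19.7 CPM; the Stat3 points of MOG, GB20 and GV16 all lie above SHAM.

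To examine needling, GB20 and GV16 were each compared with MOG; the 3 MOG libraries are shared by these comparisons and by MOG vs. SHAM, so the fold changes are not independent. In GB20 vs. MOG 1 of 9 members was called, Osmr, which was lower, where 0.24% of all genes were called and 0.142% were called lower. In GV16 vs. MOG it was again 1 of 9, Osmr and lower, where 0.164% of all genes were called and 0.0984% were called lower. The median log2 fold change of the members was -0.14 in GB20 vs. MOG and -0.12 in GV16 vs. MOG, beside 0.001 and 0.002 for all genes. Groups did not overlap for 4 members in GB20 vs. MOG (15.7% of all genes) and for 2 members in GV16 vs. MOG (12.6% of all genes).

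Osmr gave 11.7, 11.0 and 10.8 CPM in GB20 and 10.6, 9.26 and 13.9 CPM in GV16. All 6 needled libraries lay below the lowest MOG library (15.3 CPM) and above the highest SHAM library (7.27 CPM), with GV16 replicate 3 nearest to MOG. The means were 11.2 CPM ± 0.505 in GB20 and 11.2 CPM ± 2.38 in GV16 (SD, n = 3 each). The log2 fold change was -0.67 in GB20 vs. MOG (SE 0.135, edgeR adjusted p = 0.0302) and -0.66 in GV16 vs. MOG (SE 0.136, edgeR adjusted p = 0.0472).

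Both calls lay near the threshold and were easily lost, although the direction held in every fit. Osmr was no longer called in GB20 vs. MOG when MOG replicate 2 or 3 or any of GB20 replicates 1, 2 and 3 was left out, with edgeR adjusted p between 0.109 and 0.269. Nor was it called in GV16 vs. MOG when SHAM replicate 1, MOG replicate 2 or 3, any GB20 replicate, or GV16 replicate 1 or 2 was left out, with edgeR adjusted p between 0.061 and 0.477. Over all 12 fits with a library left out, the log2 fold changes ran from -0.76 to -0.59 and from -0.84 to -0.54. On log2(FPKM + 1), limma gave log2 fold changes of -0.35 and -0.36 (adjusted p = 0.273 and 0.366). On log2(FPKM + 0.1) limma gave -0.61 and -0.62 (adjusted p = 0.429 and 0.518). Of the 11 alternative fits, 9 kept the call in GB20 vs. MOG and 7 kept it in GV16 vs. MOG. The length trend over all genes was negative here (Spearman's rho -0.409 and -0.177 across genes), and with it removed Osmr had log2 fold changes of -0.59 and -0.65 and stayed called (edgeR adjusted p = 0.0396 and 0.0279).

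Stat3 gave 93.3, 108 and 99.2 CPM in GB20 and 97.1, 83.8 and 102 CPM in GV16. These values overlapped MOG (100 to 123 CPM) in both groups. The log2 fold changes were -0.12 (95% interval -0.32 to 0.07, edgeR adjusted p = 0.762) and -0.21 (-0.40 to -0.01, edgeR adjusted p = 0.921). The larger of these has an unadjusted interval that ends just under 0, and neither passed the correction over all genes.

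Lif and Socs3 were not called after needling either. Lif gave 1.34, 0.912 and 1.04 CPM in GB20 (15 to 26 counts) and 1.12, 0.514 and 1.80 CPM in GV16 (8 to 29 counts), so that GB20 lay below MOG and GV16 overlapped it. Its intervals were wide (log2 fold changes of -0.53, 95% interval -1.33 to 0.27, and -0.47, 95% interval -1.28 to 0.34). Socs3 gave 5.56, 4.74 and 4.93 CPM in GB20 and 5.40, 4.18 and 6.81 CPM in GV16, with log2 fold changes of -0.38 (SE 0.194) and -0.28 (SE 0.194). GB20 lay below MOG here as well, and GV16 replicate 3 lay inside the MOG range. In GV16, replicate 3 had the highest and replicate 2 the lowest value for Osmr, Stat3, Lif and Socs3 alike.

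The remaining receptor and ligand genes were not called between MOG and the needled groups. The GB20 libraries of Il6st (120, 114 and 131 CPM) and its GV16 libraries (133, 117 and 125 CPM) all lay under MOG, with log2 fold changes of -0.15 and -0.11 (SE 0.0815 and 0.0816), and neither was called. Lifr, Cntfr and Clcf1 had log2 fold changes between -0.14 and 0.10 in both comparisons. Il6ra, with 11 to 20 counts per needled library, had intervals from -0.48 to 1.11 and from -0.78 to 0.88.

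**Figure D3:**
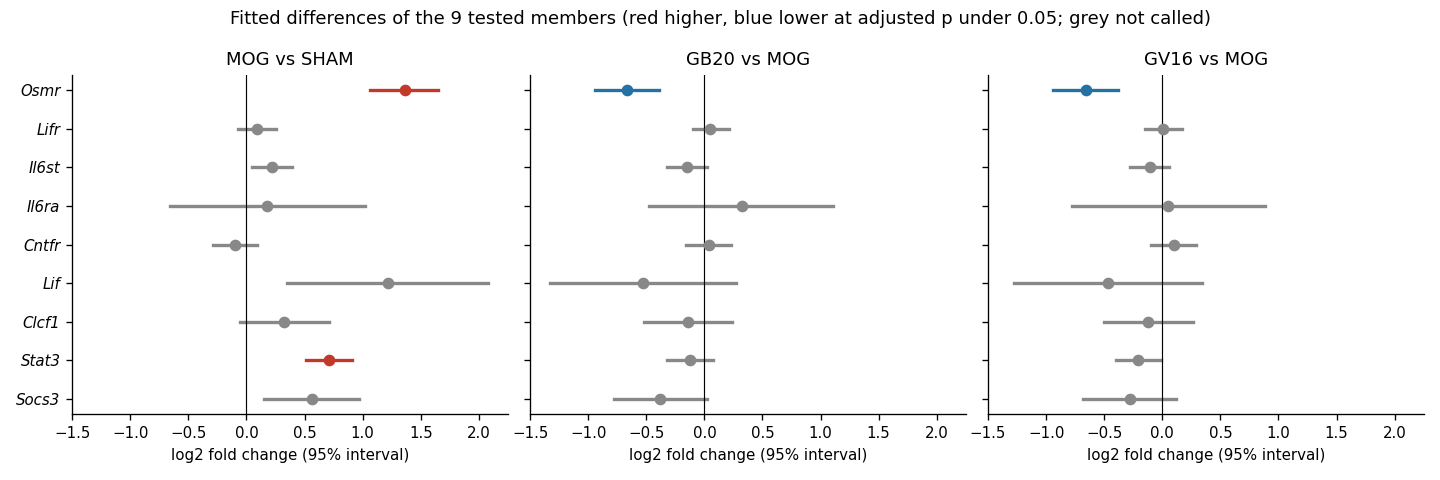
Fitted log2 fold changes (points) with 95% intervals (lines) of the 9 tested members in MOG vs. SHAM (left), GB20 vs. MOG (middle) and GV16 vs. MOG (right). Osmr and Stat3 are the 2 genes called higher in the left panel (1.36 and 0.71), and Osmr is called lower in the other panels (-0.67 and -0.66), while grey members were not called.

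Direct comparison of the acupoints called 0 of 9 members in GB20 vs. GV16 by edgeR, where 1 of 18299 genes was called (0.00546%). The count was also 0 at an unadjusted p under 0.05, and by DESeq2 and limma. For Osmr the log2 fold change was -0.01 (95% interval -0.30 to 0.28) and for Stat3 it was 0.08 (-0.11 to 0.28). A difference of Osmr between the acupoints of up to about 0.3 on the log2 scale lies inside this interval. The interval was wider for Lif (-0.90 to 0.79) and Socs3 (-0.52 to 0.31).

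Against SHAM, 2 of 9 members were called higher in GB20 (background 0.344% called, 0.164% higher) and 2 of 9 in GV16 (0.656% called, 0.224% higher), namely Osmr and Stat3 in both. With a replicate block both genes remained called in both comparisons, while the calls over all genes went from 63 to 182 in GB20 and from 120 to 236 in GV16. The SHAM libraries are shared with MOG vs. SHAM. Osmr had log2 fold changes of 0.69 (SE 0.146, edgeR adjusted p = 0.0404) in GB20 and 0.70 (SE 0.147, edgeR adjusted p = 0.0235) in GV16. Stat3 had 0.59 (SE 0.0952, edgeR adjusted p = 0.00494) and 0.51 (SE 0.0955, edgeR adjusted p = 0.0109). No needled library of either gene overlapped SHAM, which was so for 12.7% of all genes in GB20 and 14.5% in GV16. In GB20 the Osmr call ended on removal of any SHAM or GB20 replicate or of MOG replicate 2 (edgeR adjusted p of 0.0574 to 0.208). In GV16 it ended on removal of SHAM replicate 1 or 2 or GV16 replicate 3 (0.0573 to 0.248). Removal of SHAM replicate 1 ended the Stat3 call in GB20 (edgeR adjusted p = 0.0506) and in GV16 (0.103), and removal of GV16 replicate 3 ended it in GV16 (0.123).

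The rest of the pathway was read from 5 lists. Of 9 other ligands of the family 3 passed the filter and 0 were called in any comparison by edgeR, with 0 also at an unadjusted p under 0.05 in the comparisons with MOG and 0 by DESeq2 and limma. The highest by FPKM were Ctf1, which encodes cardiotrophin-1 (1.84 FPKM ± 0.258, SD, n = 12), and Ebi3, the shared subunit of IL-27 and IL-35 (0.633 FPKM ± 0.197). Chosen after their values were seen, Osm, the ligand of the oncostatin M receptor, had 6 counts and Il6 had 2 counts in all 12 libraries together. Of the other receptors 2 of 4 passed the filter, and 1 was called: Crlf3, an orphan cytokine receptor-like gene, was higher in GB20 vs. MOG (146 CPM ± 6.93 against 111 CPM ± 3.53, log2 fold change 0.40, SE 0.086, edgeR adjusted p = 0.0488). That call was lost without any MOG replicate, any GB20 replicate or GV16 replicate 3 (edgeR adjusted p of 0.0679 to 0.265), and Crlf3 had a log2 fold change of 0.29 in GV16 vs. MOG (edgeR adjusted p = 0.44).

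Of the JAK kinases, other STAT factors and adaptors 14 of 15 were tested, and 1 was called, Jak3, which was higher in MOG vs. SHAM. Jak3 encodes the kinase best known from lymphoid cells, and 7.55% of its exon bases overlap Insl3. It rose from 2.84 CPM ± 0.66 to 5.81 CPM ± 2.15 (SD, n = 3 each; log2 fold change 1.02, SE 0.235, edgeR adjusted p = 0.0285), and it missed the threshold once SHAM replicate 1 (0.158) or MOG replicate 3 (0.296) was removed. Jak3 was also not called by edgeR on the 6 libraries (adjusted p = 0.0712) or by limma on log2(FPKM + 1) (0.17). Blood leukocyte markers were near 0 in these libraries and microglial markers were higher in MOG, as given above; their part in Jak3 was not tested. The median log2 fold change of this list was 0.03. Of 15 inhibitors of cytokine signalling, all tested, 0 were called by edgeR in any comparison and 1 had an unadjusted p under 0.05 in MOG vs. SHAM; DESeq2 and limma called 0. The highest by FPKM were Socs7 (39.2 FPKM), a SOCS family member, and Pias3 (34.7 FPKM), which encodes an inhibitor of STAT3, with log2 fold changes of 0.03 and -0.01 in MOG vs. SHAM.

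Genes known as STAT3 targets were the longest list. In MOG vs. SHAM 6 of 33 tested were higher, 1 was lower and 26 were not called, where 0.568% of all genes were called higher and 1.34% in either direction, and the median log2 fold change was 0.14, beside -0.002 for all genes. Some of these genes have many other regulators, so a call says nothing of STAT3 itself. The list was chosen with earlier results of these data known, so its counts beside those of all genes are no test of the pathway. Fgf2, a growth factor made by Müller glia and photoreceptors under stress, rose from 29.8 CPM ± 0.813 to 65.3 CPM ± 9.77 (log2 fold change 1.13, SE 0.1, edgeR adjusted p = 9.51e-07). Gfap, the intermediate filament of reactive glia, rose from 23.1 CPM ± 3.26 to 54.9 CPM ± 3.08 (1.25, SE 0.172, edgeR adjusted p = 0.00287). Serpina3n, a secreted protease inhibitor of reactive astrocytes, rose from 5.31 CPM ± 1.36 to 22.5 CPM ± 4.12 (2.08, SE 0.272, edgeR adjusted p = 0.00287). These 3 stayed called in all 12 fits with a library left out.

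Edn2 (endothelin 2, log2 fold change 1.73), A2m (alpha-2-macroglobulin, 1.51) and Bcl3 (an atypical IκB protein, 1.70) were also higher, and Mmp9, a matrix metalloproteinase, was lower (-0.54). Their edgeR adjusted p were 0.00893, 0.0117, 0.0263 and 0.04. Edn2 depended on SHAM replicate 1 (0.0641 when removed) and was not called by edgeR on the 6 libraries (0.0547). A2m depended on any SHAM replicate and on MOG replicate 3 (0.0521 to 0.113). Bcl3 missed the threshold once SHAM replicate 3 or MOG replicate 2 or 3 was removed (0.07 to 0.147). Mmp9 did so on removal of SHAM replicate 1 or 2, any MOG replicate or GB20 replicate 3 (0.0525 to 0.21), and with upper-quartile scaling (0.0512). On log2(FPKM + 1), limma called neither Bcl3 (adjusted p = 0.0637) nor Mmp9 (0.109).

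After needling, 0 of 33 targets were called in GB20 vs. MOG by edgeR, with 5 at an unadjusted p under 0.05 and 0 by DESeq2 and limma. In GV16 vs. MOG 1 of 33 was called, Fgf2, which was lower (45.5 CPM ± 4.78, log2 fold change -0.52, SE 0.0977, edgeR adjusted p = 0.0235). Removing MOG replicate 3 or GV16 replicate 1 or 2 ended this call (edgeR adjusted p of 0.144 to 0.283). On log2(FPKM + 1), limma did not call it (adjusted p = 0.208). In GB20 vs. MOG the log2 fold change of Fgf2 was -0.35 (SE 0.0967, edgeR adjusted p = 0.235), and all GB20 libraries lay below MOG. With no filter on low counts, edgeR called Fgf2 lower there as well (adjusted p = 0.0223). Gfap had log2 fold changes of -0.41 in GV16 vs. MOG and -0.10 in GB20 vs. MOG (edgeR adjusted p = 0.905 and 0.906). Its GV16 libraries all lay below MOG. In GV16 vs. MOG Gfap was called by DESeq2 on the 6 libraries (adjusted p = 0.0489) and by edgeR with no filter (0.0144). The targets had median log2 fold changes of -0.05 in GB20 vs. MOG and -0.21 in GV16 vs. MOG, with 14 and 5 of 33 fitted above 0.

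Compared with SHAM, the targets called in GB20 were Gfap, Serpina3n and Fgf2, all higher (log2 fold changes of 1.15, 1.68 and 0.78), and those in GV16 were Serpina3n and Fgf2, higher (1.58 and 0.61), and Mmp9, lower (-0.58). Leaving out 1 library kept the call in 9, 6 and 12 of 12 fits in GB20 and in 6, 11 and 4 of 12 in GV16. The libraries whose absence ended them were SHAM 1 and 3 and GB20 2 for Gfap in GB20. For Serpina3n they were all 3 SHAM libraries and MOG 3, with GB20 1 and 2 in GB20 and GB20 1 and GV16 1 in GV16. For Fgf2 in GV16 it was GV16 3, and for Mmp9 they were SHAM 1 and 2, MOG 1, 2 and 3, GB20 3, and GV16 2 and 3. The edgeR adjusted p of these fits lay between 0.0504 and 0.303. With a replicate block, Gfap (edgeR adjusted p = 0.0683) and Serpina3n (0.077) were no longer called in GB20, nor was Serpina3n (0.0827) in GV16. In GB20 the block added calls of Vim, an intermediate filament (log2 fold change 0.29, edgeR adjusted p = 0.043), Crlf3 (0.38, 0.00754) and Mmp9 (-0.57, 0.0341). Gfap just missed the threshold in GV16 vs. SHAM (0.84, edgeR adjusted p = 0.0577), and all its GV16 libraries lay above SHAM. DESeq2 on 12 libraries (adjusted p = 2.32e-05), both fits of 6 libraries and edgeR with no filter called it higher there. The other scaling factors, limma, the block and removal of the length trend did not. Between the acupoints Gfap was not called (GB20 vs. GV16, log2 fold change 0.31, SE 0.166).

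**Figure D4:**
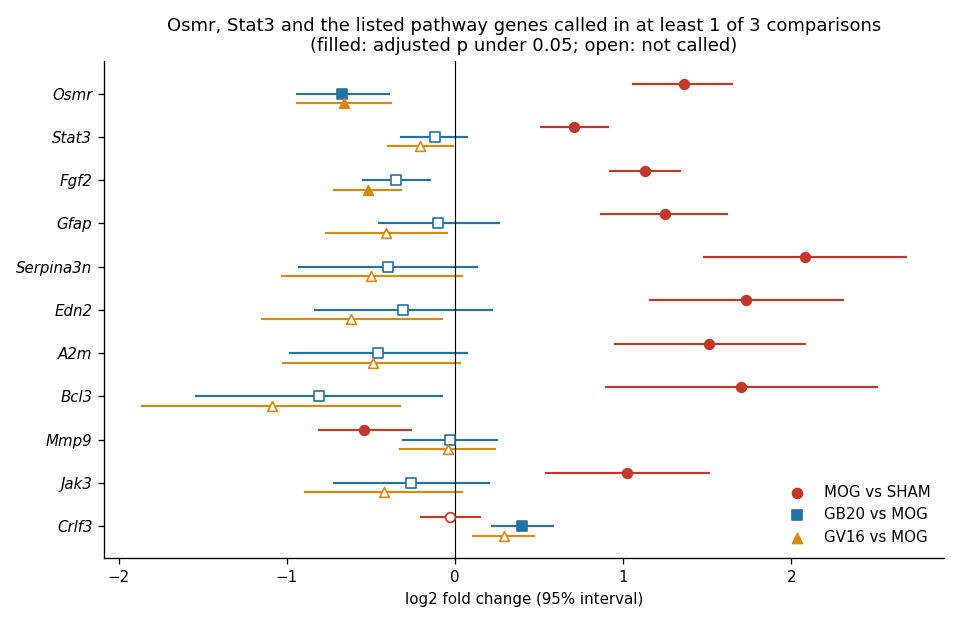
Log2 fold changes (symbols) with 95% intervals (lines) of Osmr, Stat3 and the 9 listed pathway genes called in at least 1 of 3 comparisons; filled symbols were called. In MOG vs. SHAM (circles) 9 genes lie above 0 and are called, whereas Mmp9 is called lower (-0.54) and Crlf3 is not called (-0.03); most needling estimates (squares and triangles) lie below 0 and are open.

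Finally, the genes whose pattern was most like that of Osmr and Stat3 were sought over the 12 libraries, as Pearson's r of log2 CPM. These values describe libraries of 4 groups that differ in many genes at once, so they carry no test. For Osmr the 5 highest were Fgf2 (0.959), Agtpbp1 (0.958), Serinc5 (0.93), A2m (0.925) and Pde8b (0.923). For Stat3 they were Tnnt2 (0.955), Jak3 (0.953), Lad1 (0.952), Edn2 (0.946) and C4b (0.944). All 10 genes were called higher in MOG vs. SHAM, with log2 fold changes from 0.32 for Serinc5 to 2.11 for Tnnt2. They were picked for their likeness to Osmr or Stat3, which were higher in MOG, so this count largely follows from the choice. Of all genes tested 0.568% were called higher. Among members, r was 0.872 between Osmr and Stat3 and 0.777 between Osmr and Lif. It was 0.715 between Osmr and Socs3 and 0.269 between Osmr and Lifr. Chosen after their values were seen, 2 of 14 Müller cell markers, Aqp4 and Crym, were called in the same directions as Osmr. They were higher in MOG vs. SHAM (log2 fold changes of 0.46 and 0.60) and lower in GB20 vs. MOG (-0.35 and -0.50) and in GV16 vs. MOG (-0.34 and -0.73). Of the same list Car14 had the opposite signs (-0.17, not called, then 0.50 in both needled groups, called higher), and the list's median was 0, -0.04 and -0.06. These comparisons share the MOG libraries, and the part of these markers in the Osmr result was not tested.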

How the data were processed

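Retinal RNA of 12 libraries was analysed, 3 per group, with groups and replicate numbers from the sample labels. The authors selected poly(A) RNA, aligned reads with Hisat2 (version 2.0.5, mm10, per the submitters' processing notes), counted them per gene with FeatureCounts and deposited the raw counts as whole numbers. FPKM values, which the authors computed from gene length and counts, served here for levels between genes and for limma. For the annotation release, strand and multi-mapping settings: not given in the sources used here. Total counts were 15860278 to 19194280 per library, which limits genes with few counts, such as Il6ra and Lif; such limits cover counting error only.

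Counts were fitted in R 4.3.3 with edgeR 4.0.16 (expression filter, TMM scaling, 1 mean per group, robust quasi-likelihood test, 8 residual degrees of freedom), and genes with a Benjamini-Hochberg adjusted p under 0.05 over all 18299 genes tested were called. CPM used TMM library sizes, and SE was computed as the absolute log2 fold change divided by the square root of F. Intervals of fold changes are 95% intervals of the fit, not adjusted. Names, exons and coordinates came from GENCODE vM21 (GRCm38), and promoters from RefSeq. The fit was tested on simulated data.

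Alternatives were other scaling factors, no filter, DESeq2 1.42.0, limma 3.58.1 on log2(FPKM + 1) and log2(FPKM + 0.1), fits of 6 libraries, a replicate block, removal of the length trend, and each library left out in turn. The rule for named genes took all members, every list gene called in a comparison with MOG, the 2 highest by FPKM of lists with no call, and the 5 genes most correlated with Osmr and with Stat3. Marker genes of cell types and genes called against SHAM are named beside them. Members, lists and markers were chosen with earlier results of these data known. Libraries of a group differed by more than sampling noise, so none was counted as a repeat of another. Neither labels nor methods tie a replicate number to a shared day. Deviations from the group means correlated over 0.1 in all 3 same-number pairs of SHAM with GB20 (0.211 to 0.518) and of SHAM with GV16 (0.222 to 0.281), so these 2 comparisons were taken as paired on the data alone and their blocked values stand beside them where a call or count moved. In the other 4 comparisons this did not hold.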

Additional observations from a re-analysis of the deposited data

How the results depend on the processing

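Directions and calls of Osmr and Stat3 in MOG vs. SHAM held in all 11 alternatives and all 12 fits with a library left out. Of 363 member fold changes under the 11 alternatives, 340 kept direction and call, 16 lost the call and 7 reversed. With 1 library left out it was 357, 26 and 12 of 396, and 1 gained a call. These counts cover all 9 tested members in the 3 comparisons with MOG, but only Osmr and Stat3 in the other comparisons. All counted reversals were of values that were not called. Outside these counts other members also changed sign with a library left out, such as Lif (-0.40 to 0.42) and Socs3 (-0.26 to 0.09) in GB20 vs. GV16. Neither was called there. Osmr in GB20 vs. GV16 went from -0.01 to 0.01 (no scaling, limma with 0.1, replicate block), 0 (limma with 1) and 0.05 (length trend removed), and ranged from -0.13 to 0.17 with a library left out (0 and 0.02 without GB20 replicates 2 and 3, 0.17 without GV16 replicate 3). In GB20 vs. MOG, Cntfr went to -0.01 (length trend removed), -0.01 and -0.05 (without MOG replicate 2 and GB20 replicate 2; range -0.05 to 0.14), and Clcf1 to 0.02 (without GB20 replicate 1; range -0.26 to 0.02). In GV16 vs. MOG, Lifr went to -0.01 (no scaling), 0, -0.01 and -0.04 (without MOG replicate 2, GV16 replicate 1 and GV16 replicate 2; range -0.04 to 0.08), and Il6ra to -0.03 and -0.04 (without MOG replicate 1 and GV16 replicate 3; range -0.04 to 0.11). In MOG vs. SHAM Il6ra went to -0.16 without SHAM replicate 2 (range -0.16 to 0.62). The causes were not tested.

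Counts of members called moved as follows. Both limma fits gave 0 in GB20 vs. MOG and GV16 vs. MOG (1 in the report) and 0 in GB20 vs. SHAM and GV16 vs. SHAM (2 in the report). Upper-quartile scaling and no scaling gave 0 in GV16 vs. MOG, and edgeR and DESeq2 on 6 libraries gave 1 in GV16 vs. SHAM. With a library left out the ranges were 2 to 3 in MOG vs. SHAM, 0 to 1 in each needled group vs. MOG, 0 to 2 in each vs. SHAM and 0 to 0 in GB20 vs. GV16.

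Pathway genes called were 8 in MOG vs. SHAM and 5 in both limma fits (4 to 8 with a library left out). In GB20 vs. MOG, 1 became 0 with upper-quartile or no scaling and both limma fits, and 2 with no filter (0 to 1). In GV16 vs. MOG, 1 became 3 with no filter, 2 with DESeq2 on 6 libraries and 0 with limma (0 to 2). In GB20 vs. SHAM, 3 became 9 with no filter, 8 and 7 with DESeq2 on 12 and 6 libraries, 7 with the length trend removed and 5 with edgeR on 6 libraries (1 to 5). In GV16 vs. SHAM, 3 became 5 with no filter, 6 and 5 with DESeq2 on 12 and 6 libraries and 0 with limma on log2(FPKM + 1) (1 to 4).

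Over all genes, calls in MOG vs. SHAM ran from 106 (limma with 0.1) to 539 (no filter) beside 245, in GB20 vs. MOG from 14 to 140 beside 44, in GV16 vs. MOG from 5 to 73 beside 30, in GB20 vs. GV16 from 0 to 8 beside 1, in GB20 vs. SHAM from 11 to 282 beside 63, and in GV16 vs. SHAM from 36 to 395 beside 120. Leaving out 1 library moved them from 91 (without MOG 3) to 427 (SHAM 3), 13 (MOG 2) to 83 (SHAM 2), 10 (GV16 2) to 38 (SHAM 2), 0 to 4, 14 (SHAM 1) to 116 (GV16 1) and 23 (GV16 3) to 231 (SHAM 3), and the shares of genes called moved with them. Of 18 same-number pairs 9 had r over 0.1 (-0.174 to 0.518), among them all 3 of SHAM with GB20 and of SHAM with GV16 and 3 of the 12 others, and 9 of 12 libraries correlated best with their own number. The replicate block changed no member call and gave 404, 73, 47, 1, 182 and 236 calls in the 6 comparisons in the order just given; with it Osmr had log2 fold changes of 1.36, -0.66 and -0.66 in the 3 comparisons with MOG.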
